A study of Drosophila melanogaster with 6 samples.

Results

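The odorant-binding proteins are a family of small secreted carriers named for the fluid of olfactory sensilla. Members were taken as every row of the deposited table whose gene identifier has a FlyBase symbol that starts with Obp and a number, which gave 51 genes of 17558 in the table. The rule used names alone and no measured value. The pheromone carrier lush, a protein of the same family, has another symbol and is therefore given apart from the members.

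RNA sequencing was done on adult male flies, Drosophila melanogaster, taken 12 h after they were injected with the Gram-positive bacterium Micrococcus luteus. The 3 control libraries came from flies with the genotype Gal80ts; Tub-Gal4/P{CaryP}attP40, and the 3 other libraries from Gal80ts; Tub> CR46018 flies, labelled as overexpressing the long non-coding RNA CR46018. Tub-Gal4 drives expression in most tissues, Gal80ts is a temperature-sensitive repressor of Gal4 that both groups carried, and attP40 is a landing site for transgenes that stood in the controls in place of the CR46018 construct. All flies had been injected, and no uninfected level can be given. The labels name neither a tissue, nor the number of flies per library, nor whether libraries came from separate crosses, so each p-value rests on a spread between libraries that may in part be technical, and a difference in genetic background cannot be told apart from the transgene.

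In an insect sensillum, odorant-binding proteins are released by support cells into the lymph around the sensory dendrites, where they bind small hydrophobic molecules on their way to or from membrane receptors. Many of the genes lie in tandem clusters and others stand alone, and the number in each symbol is the map band of the gene. Several members have been assigned to other places in the fly, including taste organs of the legs and mouthparts, the male reproductive tract, glia and the fat body, so the transcripts measured here need not come from an antenna. No reference sequence of the members was used here, and each is given by its symbol and position.

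Levels are in FPKM, a unit that scales fragment counts by gene length and library size, and they can be compared between genes. Whole reads could be recovered from FPKM and gene length. Recovered totals ran from 15084193 to 17396893 reads per library over genes of known length. FPKM summed over all genes ran from 694593 to 708815 in control libraries and from 646862 to 668227 in overexpression libraries. Summed levels of gene lists given below were not rescaled to a common total, so part of a gap between groups may reflect these totals. CR46018 itself (asRNA:CR46018, FBgn0267682, dm6 3R, 12634192 to 12634744, minus strand) had 0 reads in each control library. It had 3, 1 and 0 reads in overexpression libraries 1, 2 and 3. The gene overlaps CG18530 on the other strand, and the sources used here do not say how reads in shared sequence were assigned. The deposited values therefore do not show the overexpression that the label states, and they cannot show its absence. The groups are called control and overexpression by their labels. The markers of male tissue were present. Over 24 genes of the accessory gland and ejaculatory duct or bulb, the summed level was 8531 to 9437 FPKM in controls and 7066 to 8059 FPKM in overexpressing flies. Over 14 testis genes it was 1250.1 to 1392.4 FPKM and 1299.7 to 1400.2 FPKM.

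Levels in the family ran from 0 to 1360.4 FPKM. Of the 51 members, 32 reached a mean of 1 FPKM over the 6 libraries and were tested, 15 lay above 0 but under that level, and 4 were at 0 in all libraries. Among tested members, 9 had a mean of at least 100 FPKM, 10 lay between 10 and 100 FPKM, and 13 lay under 10 FPKM. Summed over all members, without rescaling for the lower FPKM total of the overexpression libraries, the level was 4627.5, 4419.9 and 4327 FPKM in control libraries 1, 2 and 3. It was 3851, 4219.7 and 3698 FPKM in overexpression libraries 1, 2 and 3. The 5 most abundant members, Obp56g, Obp51a, Obp44a, Obp56d and Obp99c, held between 74.1% and 77.0% of that sum in each library. The plot of levels by library shows this order.

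**Figure D1:**
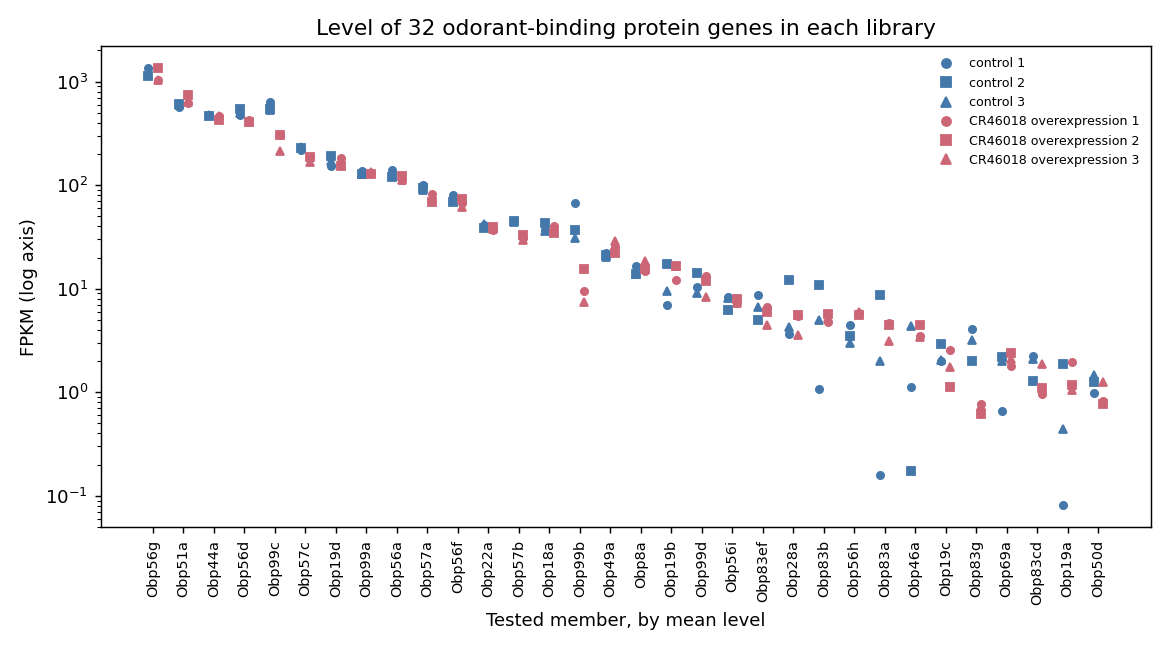
FPKM on a log axis of the 32 tested members in each of the 6 libraries, ordered by mean level; blue marks are control libraries, red marks are CR46018 overexpression libraries, and the shape gives the library number. Obp56g stands at the top with 1033.5 to 1360.4 FPKM, and the widest scatter among controls is seen in Obp83a, Obp83b, Obp19a and Obp46a.

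Odorant-binding protein transcripts were more often lower than higher in the flies labelled as overexpressing CR46018. By limma on log2(FPKM + 1), with Benjamini-Hochberg adjustment over all 12251 tested genes and a threshold of 0.05, 7 of 32 tested members fell, 1 rose and 24 did not pass. The 7 that fell are 21.9% of the tested members, against 6.31% of all tested genes that fell. Obp83g, among these 7, reached the tested level only through its controls. The single rise is 3.12% of members against 2.45% of all tested genes. When each library's FPKM were scaled to 1 common total, 63.1% of called genes were higher instead of 28.0%, and the members split into 1 higher and 5 lower. The median log2 fold change was -0.08 over the tested members and 0.00 over all tested genes. The count of members that fell was 4 without control library 2, 4 without overexpression library 3 and 4 with quantile normalization. The count of all genes that fell was 458 without control library 1, 442 without control library 2 and 428 without overexpression library 3, and the count that rose was 164, 156 and 135 in these fits.

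The groups can also be compared library by library, without a model. In 7 members every overexpression library lay below every control library, or 21.9% of those tested, against 16.2% of all tested genes. In 3 members every overexpression library lay above every control library, or 9.38%, against 12.2% of all tested genes. The first 7 were the members that fell by limma, and the 3 were Obp56h, which rose, and Obp51a and Obp49a, which did not pass.

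**Figure D2:**
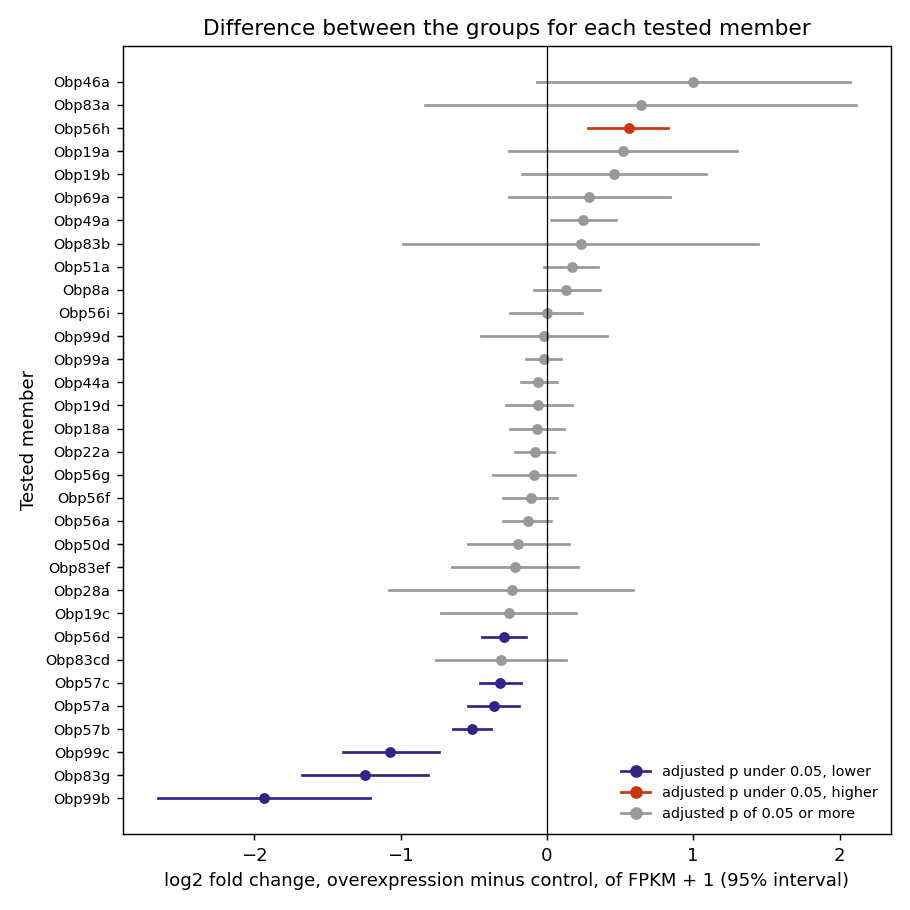
Log2 fold change of FPKM + 1, overexpression minus control, for each of the 32 tested members, with its 95% interval from limma (n = 3 libraries a group). Obp99b, Obp83g and Obp99c lie farthest to the left, at -1.93, -1.24 and -1.07, and Obp56h is the only member called higher.

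In the band 99 cluster on chromosome 3R, 2 genes fell. Obp99b (FBgn0039685, 3R, 29716254 to 29716896, minus strand) is also known as turn on sex-specificity, after its sex-biased expression in fat cells of the head. It measured 67.1, 36.9 and 30.9 FPKM in control libraries 1, 2 and 3 and 9.57, 15.6 and 7.41 FPKM in overexpression libraries 1, 2 and 3. Controls were high in every library and highest in library 1, and the groups did not overlap. The mean fell from 45.0 ± 19.4 to 10.9 ± 4.26 FPKM (SD, n = 3 libraries a group), a control level 4.14 times the overexpression level, with a log2 fold change of -1.93 ± 0.31 SE (limma adjusted p = 0.00881).

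Obp99c (FBgn0039682, 3R, 29685736 to 29689311, minus strand) was among the 5 most abundant members. It measured 638, 550 and 527 FPKM in the controls and 305, 305 and 214 FPKM in the overexpressing flies. The groups lay far apart, with the lowest value in overexpression library 3. The log2 fold change was -1.07 ± 0.14 SE (95% interval -1.39 to -0.74, limma adjusted p = 0.00389), a control mean 2.08 times the other. Of its 669 exonic bp, 23 bp are shared with Gycalpha99B on the other strand, which lay between 10.3 and 13.0 FPKM in the 6 libraries.

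The other 2 genes of that cluster did not pass. Obp99a, 13.4 kb from Obp99c, measured 138, 129 and 130 FPKM in controls and 130, 127 and 134 FPKM in overexpressing flies, and its 95% interval ran from -0.14 to 0.10 on the log2 scale (adjusted p = 0.857). Obp99d, which lies 1.25 kb from Obp99b, measured 10.5, 14.1 and 9.13 FPKM and then 13.2, 11.9 and 8.28 FPKM, with an interval from -0.45 to 0.41 (adjusted p = 0.972). Whether members of the cluster differed from each other in their response was not tested.

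The fall of Obp99b and Obp99c stood beside lower fat body markers. All 6 members listed for fat body and other body tissue were tested. Of these, 3 fell by limma (Obp99b, Obp99c and Obp56d) and 3 did not pass (Obp99a, Obp99d and Obp56a). For this and the other lists, the shares over all tested genes were 6.31% lower and 2.45% higher. Of 17 fat body genes listed, 15 were matched and 12 tested, of which 5 fell (Desat1, apolpp, AkhR, bmm and Lsp1gamma) and 0 rose by limma, with a median log2 fold change of -0.345. Their summed level was 1120.0 to 1230.5 FPKM in controls and 808 to 903 FPKM in overexpressing flies, and none was at 0 in all libraries. The lipoprotein gene apolpp fell from 106.4 ± 20.5 to 31.7 ± 11.1 FPKM (limma adjusted p = 0.00478). Of 6 genes listed for fat cells of the head, 5 were tested, of which 2 fell (Obp99b itself and sxe2) and 3 did not pass. The gene sxe2 measured 40.5, 39.5 and 41.1 FPKM in controls and 22.7, 22.9 and 15.8 FPKM in overexpressing flies (limma adjusted p = 0.0042). Cyp4d21, known as sxe1, measured 29.3 ± 1.62 and 29.5 ± 2.84 FPKM (adjusted p = 0.96). The other 2 that did not pass were to (adjusted p = 0.999) and dsx (adjusted p = 0.908). In these bulk libraries, fewer cells of a type and less RNA per cell cannot be told apart. Markers of other body tissues differed too, with 8 of 11 muscle genes, 3 of 10 hemocyte genes (NimC1, Col4a1 and Sr-CI) and 2 of 6 cuticle genes (Acp1 and Cpr62Bc) called lower and 0 called higher. Of 12 gut genes, epsilonTry and betaTry rose and Mal-A1 fell, and their summed level was 6658 to 7526 FPKM in controls and 8037 to 8506 FPKM in overexpressing flies. The part of the fat body markers in the fall of Obp99b and Obp99c was not tested.

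Obp83g (FBgn0046875, 3R, 6111671 to 6112302, minus strand) was a low gene that fell by a similar factor. It had 45, 22 and 32 reads in the controls, or 4.11, 2.02 and 3.21 FPKM. The overexpressing flies had 9, 7 and 8 reads, or 0.769, 0.614 and 0.737 FPKM. Every control library was above every overexpression library. The control mean was 4.41 times the overexpression mean (log2 fold change -1.24 ± 0.19 SE, limma adjusted p = 0.00706). Its overexpression mean of 0.707 FPKM lay under the filter of 1 FPKM. The gene was thus tested only through its control mean of 3.11 FPKM. The log2 fold change was -0.50 with a pseudocount of 5 -1.94 with a pseudocount of 0.1 and -1.96 by voom on the recovered reads, and with a mean of at least 5 FPKM required the gene was not tested.

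**Figure D3:**
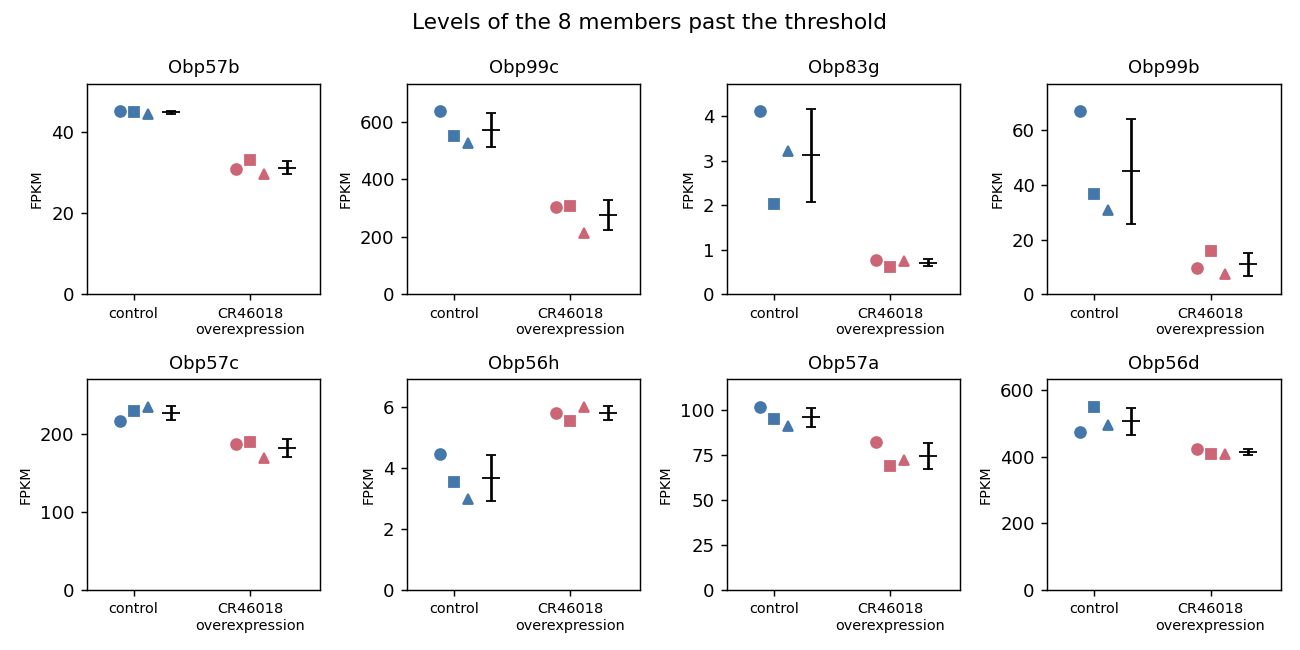
FPKM of the 8 members past the threshold in each library (linear axes from 0), with circles, squares and triangles for libraries 1, 2 and 3; the bar beside each group is the mean ± SD of 3 libraries. In each panel the 2 groups do not overlap, and Obp56h is the single panel in which the overexpression libraries, at 5.55 to 6.01 FPKM, stand above the controls.

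A run of 3 neighbouring genes of taste organs fell together by smaller amounts. Obp57c, Obp57b and Obp57a sit in this order on the plus strand of chromosome 2R, within 2.17 kb (20503584 to 20505758), with gaps of 48 bp and 13 bp between them. Obp57b measured 45.3, 45.0 and 44.5 FPKM in controls and 30.9, 33.2 and 29.8 FPKM in overexpressing flies. Its controls spanned 0.751 FPKM, and all 3 overexpression libraries lay lower (log2 fold change -0.51 ± 0.06 SE, limma adjusted p = 0.00179). Obp57a measured 101.5, 94.7 and 90.6 FPKM and then 82.2, 68.8 and 71.8 FPKM (-0.36 ± 0.08, adjusted p = 0.0262). Obp57c, the most abundant of the 3, measured 216.5, 228.6 and 234.2 FPKM and then 186.9, 188.7 and 168.3 FPKM (-0.32 ± 0.06, adjusted p = 0.0182). Control means were 1.44, 1.29 and 1.25 times the overexpression means for Obp57b, Obp57a and Obp57c.

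Obp57b passed under all 15 alternatives, with limma adjusted p up to 0.0103, while its 2 neighbours were less firm. Obp57a lost its call without control library 1 (adjusted p = 0.0846), control library 2 (0.0733), overexpression library 2 (0.0707) or overexpression library 3 (0.0941), and with quantile normalization (0.0547), in a range from 0.0138 to 0.0941. Obp57c lost its call without control library 2 (adjusted p = 0.0623), control library 3 (0.0514) or overexpression library 3 (0.0615), with a common total per library (0.0658) and with quantile normalization (0.0637), in a range from 0.0134 to 0.0658.

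The remaining 2 genes of band 57, Obp57e and Obp57d, are known in Drosophila for behaviour towards the acids of a host fruit, and lie about 42 kb away on the minus strand. Obp57e had 11 reads over the control group and 12 over the overexpression group. Obp57d was at 0 in every library, but all of its 1488 exonic bp are shared with Cpr57A on the same strand, which was at 0 too. The sources used here do not say how reads in shared sequence were assigned, so the 0 of Obp57d cannot be read as a level or as an upper limit. Obp50b and Obp50c, annotated over the same 1648 exonic bp, and Obp47b, whose 611 exonic bp all lie opposite CG7741, are the other members at 0 in all libraries, and the same holds for them.

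Of the other taste-organ members, Obp49a, which in taste organs carries bitter compounds that dampen the sweet response, measured 22.1, 21.1 and 20.3 FPKM in controls and 25.2, 22.2 and 29.1 FPKM in overexpressing flies. Its groups did not overlap, but the difference of 0.25 ± 0.09 did not pass (limma adjusted p = 0.154). Obp19b ranged from 7.01 to 17.4 FPKM in controls and from 12.1 to 16.6 FPKM in overexpressing flies (adjusted p = 0.366), and passed without control library 2 (log2 fold change 0.80, adjusted p = 0.0433, against up to 0.725 in the other alternatives). Obp56b had 2 reads over all 6 libraries.

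The 9 genes of band 56 on chromosome 2R, spread over 171 kb, held 1 fall and the single rise. Obp56d (FBgn0034470, 2R, 19702924 to 19703915, minus strand) measured 473, 550 and 495 FPKM in controls and 423, 409 and 409 FPKM in overexpressing flies. The groups did not overlap, and control library 1 was the nearest to the overexpression libraries. The log2 fold change was -0.29 ± 0.06 SE (limma adjusted p = 0.033), and -0.16 with quantile normalization. That call was lost in 9 of 15 alternatives, among them the fits without control library 2 (adjusted p = 0.0735), control library 3 (0.0632), overexpression library 1 (0.061), overexpression library 2 (0.0873) or overexpression library 3 (0.114), in a range from 0.0219 to 0.143.

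Obp56h (FBgn0034475, 2R, 19815554 to 19816204, plus strand), a gene whose knockdown in males alters cuticular hydrocarbons and mating, rose. It had 51, 40 and 31 reads in controls and 71, 66 and 68 reads in overexpressing flies, which is 4.47, 3.52 and 2.98 FPKM against 5.82, 5.55 and 6.01 FPKM. All overexpression libraries stood above all controls, with a log2 fold change of 0.56 ± 0.12 SE (limma adjusted p = 0.0262). The call was lost when low genes were kept in the fit (adjusted p = 0.051), and without control library 2 (0.0809), control library 3 (0.0512), overexpression library 1 (0.071), overexpression library 2 (0.0566) or overexpression library 3 (0.0916), and ran from 0.0118 to 0.0916 in 14 alternatives. Its log2 fold change was 0.32 at a pseudocount of 5.

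**Figure D4:**
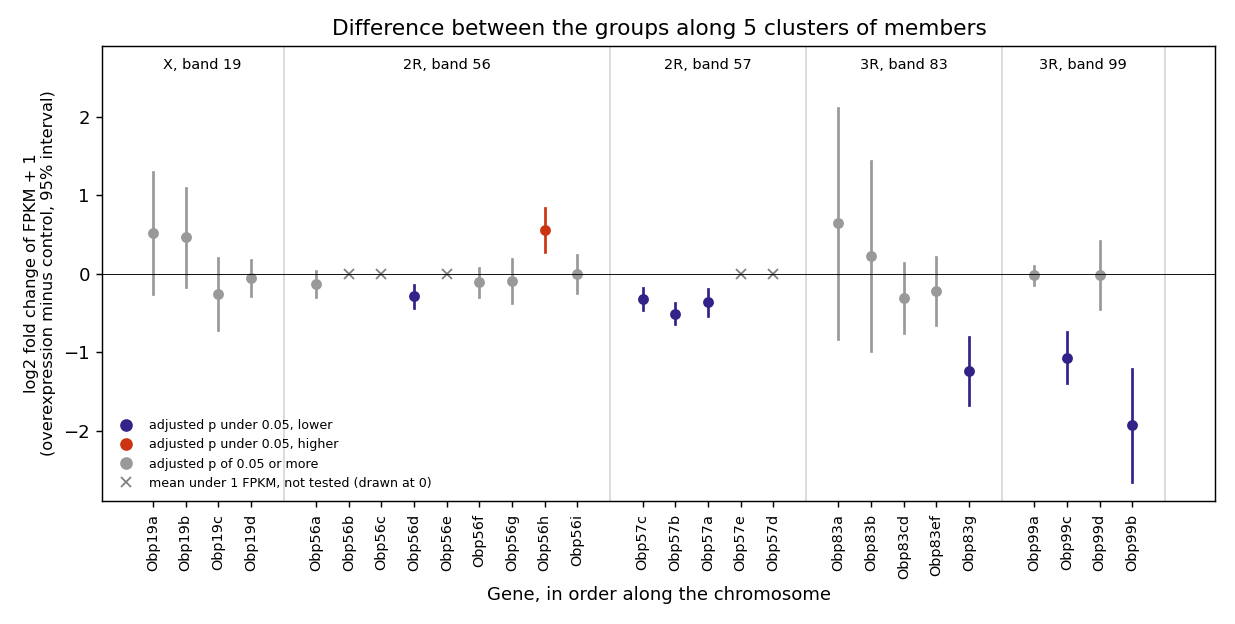
Log2 fold change of FPKM + 1 with its 95% interval (limma, n = 3 libraries a group) for members of 5 clusters, in gene order along each chromosome; crosses are members under a mean of 1 FPKM, which were not tested. Obp57c, Obp57b and Obp57a lie side by side between -0.51 and -0.32, while in band 99 the lower genes Obp99c and Obp99b alternate with Obp99a and Obp99d, at -0.02 each.

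Members of the male reproductive tract, whose products pass to the female in seminal fluid, included the most abundant genes of the family and did not pass the test. Of 7 listed, 6 were tested and 0 were called by limma, and 0 had an unadjusted p under 0.05 or were called by voom. Obp56g, a seminal protein needed for a normal female response to mating, measured 1358, 1125 and 1159 FPKM in controls and 1044.5, 1360.4 and 1033.5 FPKM in overexpressing flies, and its groups overlapped (95% interval -0.37 to 0.19). Obp51a measured 567, 610 and 600 FPKM and then 617, 748 and 638 FPKM (interval -0.02 to 0.35, adjusted p = 0.253). The others were Obp56f (73.4 ± 5.52 and 67.8 ± 6.23 FPKM), Obp22a (40.6 ± 2.05 and 38.2 ± 1.34 FPKM), Obp8a (14.7 ± 1.51 and 16.3 ± 1.82 FPKM) and Obp56i (7.57 ± 1.18 and 7.49 ± 0.338 FPKM). Among 23 tested accessory gland and ejaculatory duct or bulb markers, Acp32CD rose and Acp54A1 fell. Of the 23, 18 had a negative and 5 a positive log2 fold change, with a median of -0.139. Over all 12251 tested genes, 6197 were negative, 6.31% were called lower and 2.45% were called higher. The summed level of these markers was 8531 to 9437 FPKM in controls and 7066 to 8059 FPKM in overexpressing flies. Their part in the levels of the male tract members was not tested.

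Obp44a, which is expressed in glia, lay close together in the groups, at 473, 463 and 472 FPKM in controls and 463, 425 and 466 FPKM in overexpressing flies (95% interval -0.18 to 0.07, limma adjusted p = 0.588). It shares 205 of its 1076 exonic bp with Pabp2 on the other strand, at 16.3 to 21.5 FPKM. Of 12 glia markers, 3 fell (Eaat1, Gat and Mdr65) and 0 rose, against 6.31% and 2.45% of all tested genes. Their summed level was 540.5 to 591 FPKM in controls and 478 to 528 FPKM in overexpressing flies. The part of these markers in the level of Obp44a was not tested. Obp56a measured 141, 119 and 123 FPKM and then 113, 122 and 113 FPKM (interval -0.30 to 0.03), and Obp18a lay between 34.8 and 42.8 FPKM in all libraries.

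Members listed for antennal sensilla showed no called difference between the groups, but several of them differed widely among the control libraries. Of 9 listed members, 7 were tested and 0 passed by limma, and 0 had an unadjusted p under 0.05 or were called by voom. Obp83a, known as OS-F and secreted in sensilla of the antenna, had 3, 163 and 35 reads in control libraries 1, 2 and 3, or 0.158, 8.64 and 2.03 FPKM. In overexpression libraries 1, 2 and 3 it had 95, 88 and 59 reads, or 4.68, 4.45 and 3.14 FPKM. The overexpression libraries thus lay inside the span of the controls.

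Its neighbour and close relative Obp83b, known as OS-E, followed the same order, with 1.08, 11.0 and 4.97 FPKM in controls and 4.79, 5.67 and 5.26 FPKM in overexpressing flies. Obp28a, abundant in basiconic sensilla, measured 3.62, 12.1 and 4.27 FPKM and then 5.41, 5.55 and 3.55 FPKM. Obp19a measured 0.0808, 1.87 and 0.444 FPKM and then 1.97, 1.16 and 1.06 FPKM. Obp69a measured 0.666, 2.20 and 1.99 FPKM and then 1.78, 2.38 and 2.11 FPKM, and Obp59a, which is needed for the sensing of humidity, had 0, 15 and 2 reads in the controls. In each of them control library 1 was the lowest control and control library 2 the highest.

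Control library 2 was the highest control for 8 of the 9 antennal members and control library 1 the lowest for 8 of the 9, against 35.4% and 30.2% of all tested genes. The 9 include Obp59a and Obp84a, which were too low to be tested, so the shares are not of like genes. Obp84a had 1, 4 and 2 reads in the controls and shares 663 of its 817 exonic bp with Dtwd2 on the other strand. Obp83cd was the exception to both. The coefficient of variation between controls was above 50% in 6 of 32 tested members, namely Obp83a, Obp19a, Obp46a, Obp83b, Obp28a and Obp69a, against 1.54% of all tested genes. Those 6 members had low means, from 1.10 to 5.75 FPKM, and the share of all genes was not matched for level. In the overexpression group the coefficient of variation was above 50% in 0 of 32. Without control library 1 the log2 fold changes of Obp83a, Obp83b and Obp69a were -0.10, -0.44 and -0.01, against 0.64, 0.23 and 0.29 with all libraries. Without control library 2 that of Obp28a was 0.22, against -0.24.

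Of 23 matched genes of olfactory and taste sense organs, which include odorant and taste receptors with few reads, control library 1 was the lowest control for 13 and control library 2 the highest for 15, and both held for 10. The antennal secreted protein gene a10 measured 0.0917, 10.2 and 2.72 FPKM in control libraries 1, 2 and 3 and 4.37, 8.27 and 2.496 FPKM in overexpression libraries 1, 2 and 3. Orco, the co-receptor of odorant receptors, measured 0.509, 1.51 and 0.765 FPKM and then 1.08, 1.18 and 0.648 FPKM, and lush measured 1.17, 2.19 and 1.63 FPKM and then 1.34, 1.78 and 1.61 FPKM. Snmp1, a co-receptor for a pheromone, measured 6.86, 7.33 and 5.78 FPKM in the controls, with control library 3 the lowest. Over the 23 genes the summed level ran from 14.3 to 30.1 FPKM in controls and from 16.9 to 26.1 FPKM in overexpressing flies, and the neuron marker genes, with 0 of 11 called, summed to 128 to 136 FPKM in controls. The part of sense organ content in the spread of the antennal members was not tested.

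**Figure D5:**
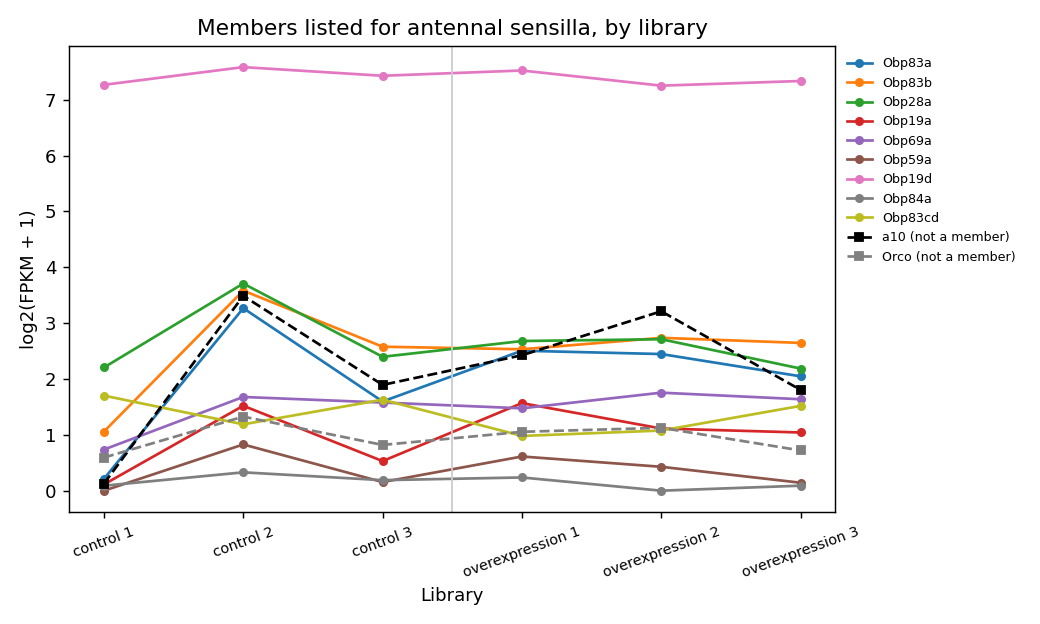
Log2(FPKM + 1) in each library of the 9 members listed for antennal sensilla, with a10 and Orco, which are not members, as dashed lines. Obp83a, Obp83b, Obp28a and a10 are lowest among controls in library 1 and highest in library 2, while Obp19d stays between 151.6 and 191.1 FPKM throughout.

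Obp19d, also found in taste organs and the most abundant antennal member, varied less, at 153, 191 and 172 FPKM in controls and 183, 152 and 161 FPKM in overexpressing flies (95% interval -0.28 to 0.17, limma adjusted p = 0.787). Obp46a, which is on no site list, had 13, 2 and 46 reads in the controls and 43, 53 and 39 reads in the overexpressing flies (95% interval of the log2 fold change -0.07 to 2.07, adjusted p = 0.245). Control library 2 was the lowest control for Obp46a. Without control library 3 it passed (log2 fold change 1.59, adjusted p = 0.0149, against up to 0.513 in the other alternatives). The other tested members, Obp83ef, Obp83cd, Obp19c and Obp50d, had means between 0.948 and 6.84 FPKM in either group and adjusted p from 0.378 to 0.539. Obp83ef and Obp83cd share 92 exonic bp on opposite strands, and the sources used here do not say whether counting used strand.

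The 15 members above 0 but under a mean of 1 FPKM carried few reads. The highest was Obp50a, at a mean of 0.778 FPKM and 31 and 34 reads over the control and overexpression groups. Obp58c had 1, 0 and 3 reads in controls and 10, 6 and 7 reads in overexpressing flies, and its groups did not overlap. Obp56c had 7 and 27 reads over the groups, of which 22 were in overexpression library 2. Without the filter on low values 47 members were tested, and 6 were lower and 0 higher.

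Receptor genes of the same senses were mostly too low to test. Of 60 odorant receptor genes 5 were tested, of 60 gustatory receptor genes 3, of 66 ionotropic receptor genes 4, and of 20 CheA and CheB genes, which encode secreted or membrane-linked proteins of taste bristles, 8, and 0 of these 20 tested genes passed by limma. At an unadjusted p under 0.05 the count was 3 (Ir62a, CheB42c and Or59c, named after their values were seen), and voom called 1, Ir62a, which was higher (log2 fold change 0.54, adjusted p = 0.0373). Among 9 other carriers and partners, Snmp2, a membrane protein related to a pheromone co-receptor, fell from 9.61 ± 0.423 to 7.34 ± 0.872 FPKM (limma adjusted p = 0.0483), and the others did not pass. It lost that call without any 1 of the 6 libraries, with adjusted p from 0.0543 to 0.118, and with a common total per library (0.0975). The ejaculatory bulb carrier gene EbpIII measured 1761.5 ± 135.5 and 1493.5 ± 29.0 FPKM (adjusted p = 0.0812).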

How the data were processed

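RNA was poly(A)-selected and sequenced as paired ends, and reads were aligned with HISAT2 2.0.5 and counted per gene with featureCounts 1.5.0-p3, per the labels' protocols, on build dm6, per the submitters' processing notes. The deposited table holds FPKM values for 17558 genes in 6 libraries. The sources used here do not give the gene annotation, whether counting used strand, or how FPKM were derived from counts. Symbols matched 17252 identifiers, and 306 had none. Positions and exonic lengths came from the Ensembl annotation of the same build. FPKM multiplied by exonic length gave whole reads, within 0.01 reads, for 97.6% of genes above 0 with a known length.

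Genes with a mean of at least 1 FPKM (12251) were fitted with limma 3.58.1 in R 4.3.3 on log2(FPKM + 1) with a trended variance, two-sided, 3 libraries against 3, with Benjamini-Hochberg adjustment over all tested genes and a threshold of 0.05. A fold change on this scale understates the change of low genes. Intervals are 95% intervals from the same fit. The procedure was tested on simulated data. Replicate counts differed by more than sampling noise, so all libraries were kept.

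Every tested member was to be named, with values in each library for those past the threshold and the 10 most abundant; of other lists, up to 3 genes past the threshold with the smallest p. The members, lists and tests were chosen with earlier results of these data known, and site and marker lists came from general knowledge. Values by library of other members, and those of Cyp4d21, a10, Orco, lush, Snmp1, EbpIII, sxe2 and neighbouring genes, were chosen for printing after they were seen. Alternatives changed the pseudocount, filter, scaling or model, blocked on replicate number, or left out a library.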

Additional observations from a re-analysis of the deposited data

How the results depend on the processing

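Of 15 alternatives, all kept Obp57b, Obp99b and Obp99c lower and past the threshold (highest limma adjusted p 0.0103, 0.0346 and 0.0174), and so did the 14 that tested Obp83g (0.0254). In the main fit Obp83g met the filter only through its controls. The number of members higher was 0 without a filter, 0 with a mean of at least 5 FPKM and 0 to 1 with a library left out; the number lower was 4 with quantile normalization and 4 to 6 with a library left out. Of all genes, 826 rose and 484 fell with a common total per library, which moved their median by 0.082, and 860 rose by voom on recovered reads, where 54.2% of calls were higher; with a library left out, 135 to 286 rose and 428 to 628 fell. With a common total, 1 CheA or CheB gene and 1 ionotropic receptor gene were higher, and voom called 1 ionotropic receptor gene higher. Of other carriers and partners, 2 were lower with a mean of at least 5 FPKM and by voom, 0 without a filter, with a common total, with median-of-ratios scaling and with the replicate block, and 0 to 1 with a library left out. Same-numbered libraries did not deviate together (correlations 0.0456, -0.0761 and 0.0264), and libraries 2 and 3 of the controls did not correlate best with their own number; the replicate block gave 1 member higher and 6 lower, and 219 and 616 of all genes. The sign turned only in members that did not pass. With a common total, log2 fold changes were 0.03 for Obp18a, 0.04 for Obp19d, 0.01 for Obp22a, 0.04 for Obp44a, 0.01 for Obp56g, 0.08 for Obp56i, 0.07 for Obp99a and 0.07 for Obp99d. With quantile normalization they were 0.03 for Obp19d, 0.05 for Obp44a, 0.01 for Obp56i and 0.06 for Obp99a. By voom they were 0.01 for Obp19d, 0.00 for Obp44a, 0.06 for Obp56i, 0.04 for Obp99a and 0.04 for Obp99d, and with median-of-ratios scaling 0.00 for Obp56i. With a library left out the range was -0.12 to 0.00 for Obp18a, -0.14 to 0.02 for Obp19d, -0.53 to 0.22 for Obp28a, -0.12 to 0.07 for Obp56i, -0.01 to 0.47 for Obp69a, -0.10 to 1.43 for Obp83a, -0.44 to 0.82 for Obp83b, -0.04 to 0.01 for Obp99a and -0.14 to 0.16 for Obp99d. The cause of these shifts was not tested. Low read counts limit the members under 1 FPKM.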

Other observations

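Nearest tested genes outside the family gave their own values beside the members that moved. Dup99B, a seminal peptide gene 877 bp from Obp99b and between it and Obp99c, had a control level of 400.6 ± 21.1 FPKM and an overexpression level of 387.9 ± 61.1 FPKM (SD, n = 3 libraries a group, limma adjusted p = 0.807). CG15506, on the other side of Obp99b, measured 2.65 ± 0.282 and 2.45 ± 0.584 FPKM (adjusted p = 0.744). Beside the band 57 run, lncRNA:CR44644, 137 bp from Obp57a on the other strand, measured 7.89 ± 0.964 and 7.10 ± 2.01 FPKM (adjusted p = 0.633), while lncRNA:CR44643, 11289 bp from Obp57c, fell from 5.89 ± 0.784 to 3.79 ± 0.367 FPKM (limma adjusted p = 0.0211). Gasp, a chitin-binding protein gene 10784 bp from Obp83g, fell from 26.4 ± 0.748 to 19.9 ± 0.0479 FPKM (limma adjusted p = 0.00388). Vha14-2, 10290 bp away on the other side of Obp83g, measured 7.74 ± 1.16 and 8.42 ± 1.37 FPKM (adjusted p = 0.689). CG7582 beside Obp99c, CG15126 and asRNA:CR44509 beside Obp56d, and CG8517 and Toll-7 beside Obp56h did not pass. Their adjusted p ran from 0.0552 to 0.997.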
